A study of Arabidopsis thaliana with 6 samples.

Results

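AT3G47540 is an Arabidopsis thaliana gene of the chitinase family that the analysis follows together with 8 relatives: EP3 (AT3G54420), the series of loci from AT2G43570 to AT2G43620 on chromosome 2, and AT1G56680. The relatives were listed by family, while AT3G47540 was selected on its higher signal after estradiol on these same arrays. A probe set naming the gene alone was found for 8 of the 9 genes, out of 13513 probe sets with 1 gene and 22746 probe sets tested. EP3, whose RefSeq synonyms call it a class IV chitinase, has no such probe set in the annotation used and was not analysed here. RefSeq names AT2G43570 as CHI, with putative chitinase among its synonyms, and gives the other 7 genes no name beyond locus or clone, so their class could not be checked.

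Transcripts were measured on 1-colour Affymetrix arrays in whole seedlings of T3 plants in the Col-0 background. All plants carried the same construct, in which the constitutively made factor XVE enters the nucleus on binding estradiol and switches on RPXΔC from a LexA promoter; RPX is a NAC transcription factor, and ΔC in the name stands for a missing C-terminal part. Seedlings aged 14 days, raised in 16 h light and 8 h dark, received 10 µM estradiol or a mock treatment, described as ethanol in one label and as inducer-free medium in another, for 2 h. Each group has 3 arrays that the labels call biological replicates. The study asked which genes RPX targets directly; every sample carries the transgene, so estradiol and RPXΔC cannot be told apart. Nothing in the labels says how many independent lines the T3 seedlings represent.

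Chitinases cut the chains of N-acetylglucosamine that make up chitin, a polymer of fungal walls and arthropod cuticles that plants do not make. Class IV enzymes belong to glycoside hydrolase family 19, are usually secreted, and are known from defence against fungi and, for EP3 and its carrot counterpart, from embryo development. In whole seedlings, fewer cells of a type and less RNA per cell cannot be told apart.

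Median signal per array lay between 35.7 and 38.7. Estradiol replicate 3 stood apart by its actin 3'/5' control ratio of 15.2, against 4.37 to 6.11 on the other arrays. Its GAPDH 3'/5' control ratio was also the highest, 1.68 against 0.969 to 1.15. Mock replicates 1 and 2 stood apart by their 25S rRNA control signals of 302 and 286, against 918 to 1534 on the other arrays. All 4 measured shoot markers and all 3 measured root markers had a signal of 16 or more on each array, but no detection calls were used. RCA, the Rubisco activase gene, lay between 3720.0 and 5879, and PYK10, a root beta-glucosidase gene, between 1634 and 2606. The root markers EXPA18 and EXPA7 were much dimmer, at 17.8 to 29.6 and 24.9 to 49.7. No shoot or root marker passed the threshold for a difference between groups. The 3 root markers all had negative log2 differences (median -0.26), and EXPA18, a root hair expansin gene, was below its mock values on each estradiol array, as were 7.74% of all probe sets. Of the 4 shoot markers 3 were negative (median -0.17), and 57.1% of all probe sets were negative. The part of these markers in the results below was not tested.

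AT3G47540 was higher on each estradiol array than on any mock array. Its signal was 46.8, 39.6 and 31.7 in mock replicates 1, 2 and 3, and 114, 120.2 and 97.6 in estradiol replicates 1, 2 and 3. The group means were 39.3 ± 7.59 and 111 ± 11.7 (SD, n = 3 each), a ratio of 2.81. The gap between the lowest estradiol array and the highest mock array was larger than the spread within either group. On the scale of log2(intensity + 16), where 16 is a pseudocount that damps the noise of dim probe sets, the difference was 1.199 ± 0.137 (SE), with a 95% interval from 0.87 to 1.52. The pseudocount makes this smaller than the change in signal itself. These values chose the gene and are given as a description, without a test.

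Estradiol replicate 3 was the lowest of its group and mock replicate 3 the lowest of the other. The log2 difference was 1.28 without estradiol replicate 3, whose actin ratio stood apart. It was 1.41 when mock replicate 3, the mock array whose 25S rRNA signal was nearest to those of the estradiol arrays, served as the only control.

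**Figure D1:**
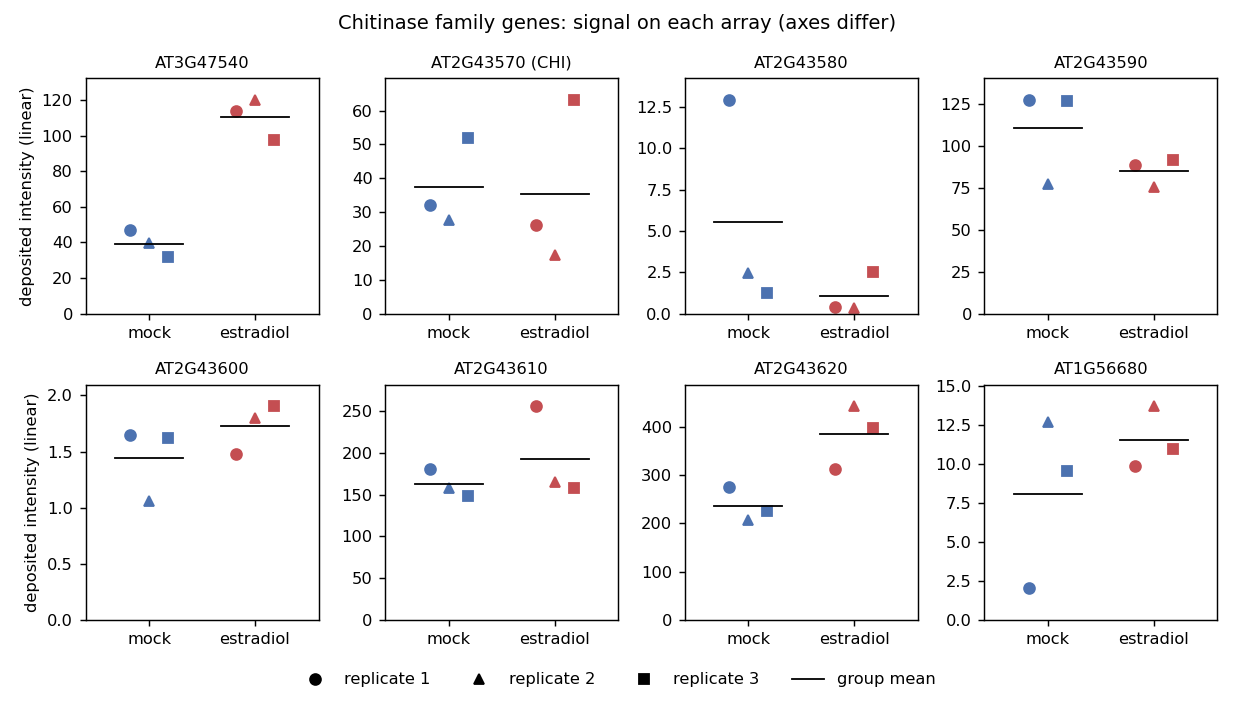
Deposited intensity on a linear axis for the 8 measured family genes on each of the 6 arrays, with the marker shape giving the replicate and the line the group mean; each panel has its own axis from 0. The groups do not overlap for AT3G47540 and AT2G43620 and overlap for the 6 others.

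None of the 7 measured relatives passed limma's threshold, an adjusted p under 0.05 after Benjamini-Hochberg adjustment over all 22746 probe sets. In that comparison 0.114% of all probe sets were called higher and 0% lower, so with 7 genes no call is also what the background gives. Before adjustment 1 of the 7 was higher at p under 0.05 and 0 were lower, against 3.96% and 4.58% of all probe sets. The relatives had 4 positive and 3 negative differences with a median of 0.02 on the log2 scale, and all probe sets had a median of -0.03.

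AT2G43620, at one end of the chromosome 2 series, had the largest difference among the relatives. Replicates 1, 2 and 3 gave 276, 207 and 225 in mock and 313, 444 and 398 with estradiol, with mean signals of 236 ± 35.7 and 385 ± 66.3 (SD, n = 3 each) and a ratio of 1.63. The groups did not overlap, with estradiol above mock; over all probe sets, 5.79% were separated in this direction and 7.74% in the other. The log2 difference was 0.67 ± 0.164 (SE), with a 95% interval from 0.28 to 1.05 (limma adjusted p = 0.337). With 3 arrays in each group, the smallest p that an exact two-sided permutation test allows is 0.1. The adjusted p above comes from limma and does not rest on that limit. AT2G43620 was higher in 3 of 3 arrays, with a limma p of 0.005 before adjustment, but not past the threshold once all probe sets were taken into account.

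AT2G43610, the neighbour of AT2G43620, rested on 1 array. It gave 181, 157 and 148 in mock and 256, 165 and 157 with estradiol, so the groups overlapped and only estradiol replicate 1 stood above the rest. The log2 difference was 0.20 ± 0.189 (SE; limma adjusted p = 0.807), and it was -0.004 without estradiol replicate 1.

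AT2G43590 lay on the other side of 0. Its signal was 127, 77.4 and 127 in mock and 88.4, 75.4 and 91.4 with estradiol. Mock replicate 2 fell among the estradiol values and the other two mock arrays lay above them. The log2 difference was -0.30 ± 0.187 (SE), with a 95% interval from -0.74 to 0.14 (limma adjusted p = 0.703). It was -0.51 without mock replicate 2 and -0.20 without either of the other mock arrays.

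CHI (AT2G43570), at the other end of the series, differed more between replicates than between groups. It gave 32.1, 27.8 and 52.0 in mock and 26.1, 17.2 and 63.2 with estradiol, and replicate 3 was the highest in both groups. The log2 difference was -0.12 ± 0.332 (SE), with an interval from -0.91 to 0.66 (limma adjusted p = 0.949). CHI had the widest interval of the 7 relatives. Without mock replicate 3 its log2 difference was 0.07, and without estradiol replicate 2 it was 0.14, so its sign was not settled.

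The 3 remaining relatives were dim, with a signal under 16 on all 6 arrays, and no detection calls were used to say whether they lie above background. AT2G43600 lay between 1.06 and 1.91 over the 6 arrays. AT2G43580 gave 12.9 on mock replicate 1 and between 0.354 and 2.5 on the other 5 arrays. AT1G56680 gave 2.06 on mock replicate 1 and between 9.56 and 13.7 on the others. The groups of each overlapped. Their log2 differences were 0.02, -0.30 and 0.22, in that order (limma adjusted p = 0.968, 0.731 and 0.781), and the pseudocount bounds what such dim probe sets can show. With a pseudocount of 1 they were 0.17, -1.34 and 0.71, so their size depends on that setting. Without mock replicate 1, the difference of AT2G43580 was -0.06 and that of AT1G56680 was 0.02.

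**Figure D2:**
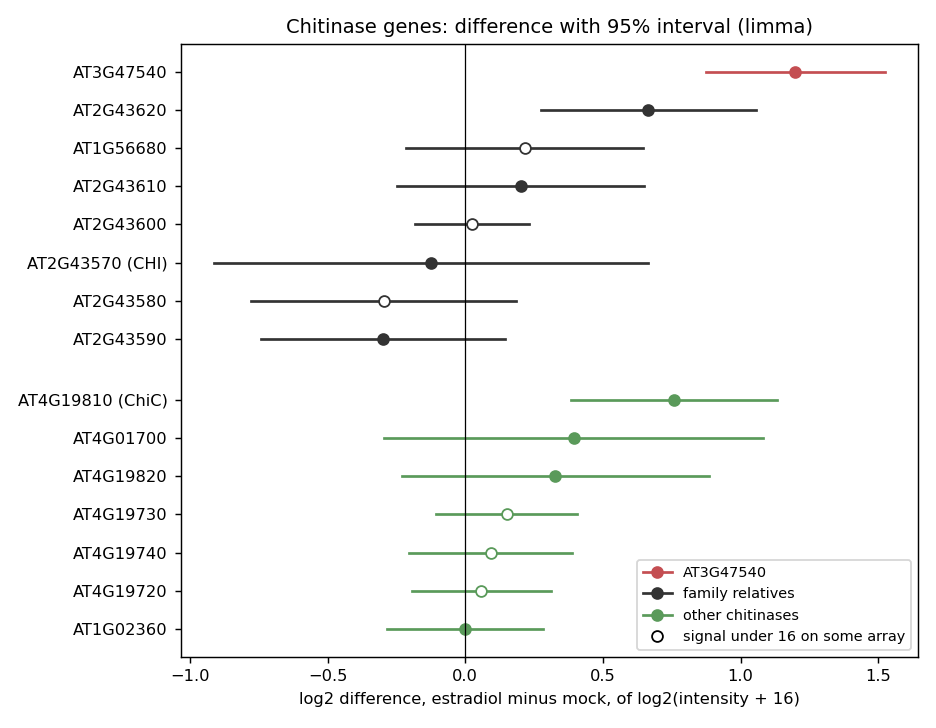
Log2 difference between estradiol and mock (points) with its 95% interval (lines) for the 8 measured family genes and 7 other chitinase genes; open points mark genes with a signal under 16 on at least 1 array. The interval of AT3G47540 runs from 0.87 to 1.52, and of the others those of AT2G43620 and ChiC lie wholly above 0.

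The intervals of the 7 relatives reached at most 1.05. The interval of AT3G47540 reached down to 0.87 and overlapped that of AT2G43620. The difference between AT3G47540 and its relatives was not tested, since AT3G47540 was chosen for its rise. For 6 of the 7 relatives the interval held 0.

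The 6 relatives on chromosome 2 stand next to each other in the RefSeq order of loci, interrupted by 2 non-coding loci. Along the series from AT2G43570 to AT2G43620 the log2 differences were -0.12, -0.30, -0.30, 0.02, 0.20 and 0.67. Only the interval of AT2G43620 lay clear of 0, so the signs of the others along the series are not settled. AT2G43580 and AT2G43600 were also under 16 on all arrays. Relatives of this kind can share sequence, and whether the probe sets pick up each other's transcripts was not tested.

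The same question was put to the loci around AT3G47540. Of the 5 annotated loci on each side, 6 have a probe set of their own, and none passed the limma threshold or had an unadjusted p under 0.05. Over all probe sets, 0.114% were called higher and 0% lower, and 3.96% and 4.58% had an unadjusted limma p under 0.05. With 6 genes, no call is thus also what the background gives. The log2 differences of the 6 neighbours lay between -0.18 and 0.22. The nearest measured neighbour on the upper side, AT3G47550, gave 99.0, 93.3 and 80.4 in mock and 94.6, 108 and 68.6 with estradiol. The nearest on the lower side, AT3G47530, which encodes a pentatricopeptide repeat protein, gave 16.7, 20.6 and 18.8 in mock and 21.1, 16.0 and 11.7 with estradiol. The groups overlapped at both loci and at AT3G47510, AT3G47560, AT3G47570, a receptor-like kinase gene, and MDH (AT3G47520), a malate dehydrogenase gene. Overlap was the usual case: over all probe sets, 5.79% were separated with estradiol above mock and 7.74% with estradiol below. AT3G47560 had 0.22, or 0.10 without mock replicate 1, and MDH had -0.18, or -0.11 without mock replicate 3.

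**Figure D3:**
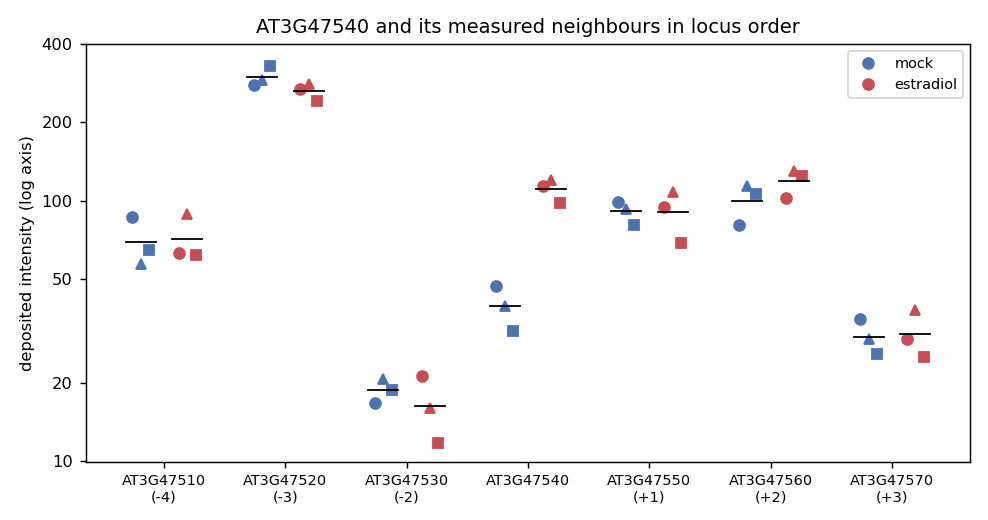
Deposited intensity on a log axis for AT3G47540 and its 6 measured neighbours in locus order. The number in brackets is the neighbour's position in the order of loci, counted from AT3G47540. Circles, triangles and squares are replicates 1, 2 and 3 and lines are group means. The groups separate for AT3G47540, which was chosen for its rise, and overlap for all 6 neighbours, as they do for most probe sets.

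Other chitinases were taken from a list of 15 genes, of which 7 have a probe set of their own. None passed the limma threshold. Over all probe sets 0.114% were called higher and 0% lower, so no call is also what the background gives. Before adjustment 1 of the 7 was higher at limma p under 0.05 and 0 were lower, against 3.96% and 4.58% of all probe sets. A positive difference was found in 6 of the 7, against 42.9% of all probe sets. The median log2 difference was 0.15, against -0.03 over all probe sets. The positive differences include those of the dim AT4G19720, AT4G19730 and AT4G19740, and the median is that of AT4G19730. No conclusion about chitinases as a group is drawn from them. ChiC (AT4G19810), a family 18 chitinase of class V, had the largest difference. It gave 33.4, 43.4 and 42.1 in mock and 99.6, 66.6 and 70.4 with estradiol, so the ratio of means was 1.99 and the groups did not overlap, as for 5.79% of all probe sets in this direction. Its log2 difference was 0.76 ± 0.158 (SE), with an interval from 0.38 to 1.13 (limma adjusted p = 0.253).

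The groups overlapped for the 6 others. AT4G19730 had the next smallest p, with a signal of at most 6.01 and a log2 difference of 0.15 (limma adjusted p = 0.741). AT4G19820 gave 27.3, 36.7 and 64.2 in mock, and its estradiol signals of 66.4, 46.4 and 54.1 lay on both sides of the highest of these. Its log2 difference of 0.33 turned to -0.17 against mock replicate 3 alone. AT4G01700, a further family 19 gene, gave 127, 97.7 and 57.7 in mock and 114, 173 and 94.5 with estradiol. Its log2 difference of 0.39 rested on single arrays, with 0.13 without mock replicate 3, 0.17 without estradiol replicate 2 and 0.61 without mock replicate 1. AT1G02360 had a difference near 0 with all values between 48.3 and 66.6. AT4G19720, AT4G19730 and AT4G19740 were dim, with signals from 1.24 to 8.60. Beyond ChiC and AT4G19730, the genes of this list were named with their values already known.

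Genes of chitin perception and of defence gave few measured members. Of 14 listed genes for chitin receptors and the kinases behind them, 1 was measured. It was PBL27 (AT5G18610), a kinase that acts downstream of the chitin receptor CERK1, with a signal of 10.8 on mock replicate 1 and between 0.505 and 1.37 on the other 5 arrays (log2 difference -0.21, limma adjusted p = 0.795; 0.00691 without mock replicate 1). Of 16 listed pathogenesis-related and defence genes, 3 were measured, and none passed the threshold in either direction. With 0.114% of all probe sets called higher and 0% lower, no call among so few genes is also what the background gives. WRKY53, a transcription factor gene of defence and senescence, gave 51.1, 34.1 and 42.3 in mock and 37.3, 45.8 and 67.6 with estradiol, and its log2 difference was 0.16 (limma adjusted p = 0.854). PDF1.2, a defensin gene of the jasmonate and ethylene pathway, gave 37.7, 42.5 and 18.6 in mock and 26.4, 52.7 and 21.2 with estradiol. Its replicate 3 was the lowest in both groups, where CHI was the highest. The thionin gene THI2.1 was dim, with signals from 3.32 to 16.4. Its log2 difference was -0.09 (limma adjusted p = 0.943). PDF1.2 was named with its values already known.

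Likeness to AT3G47540 was measured as the root mean square distance between the log2 values of 2 genes over the 6 arrays, each centred on its own mean, among the 13512 other probe sets with 1 gene. The 5 nearest were AT1G04810 (distance 0.081), which encodes the proteasome subunit RPN2B, AT1G23830 (0.097), AT1G45000 (0.111), which encodes the proteasome ATPase RPT4B, AT5G51260 (0.130) and AT1G15920 (0.133), which encodes a CAF1-type deadenylase. AT1G04810 gave 197, 171 and 140.5 in mock and 467, 484 and 418 with estradiol, a log2 difference of 1.36. In all of the 5 but AT1G15920, replicate 3 was the lowest array of each group, as in AT3G47540. The measure follows the group difference and the spread within groups together, so genes that rose by a similar amount are favoured, and it is a description of 6 arrays.

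Among the relatives the nearest was AT2G43620, at a distance of 0.326 and rank 82 of the 13512. AT2G43610 came at rank 1117 and AT1G56680 at rank 2288. CHI came at rank 13106, the farthest of the 7. The 5 genes nearest to AT3G47540 were not among these relatives. With only 7 relatives among 13512 candidates, this is also what the background gives, and no conclusion about the family is drawn.

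**Figure D4:**
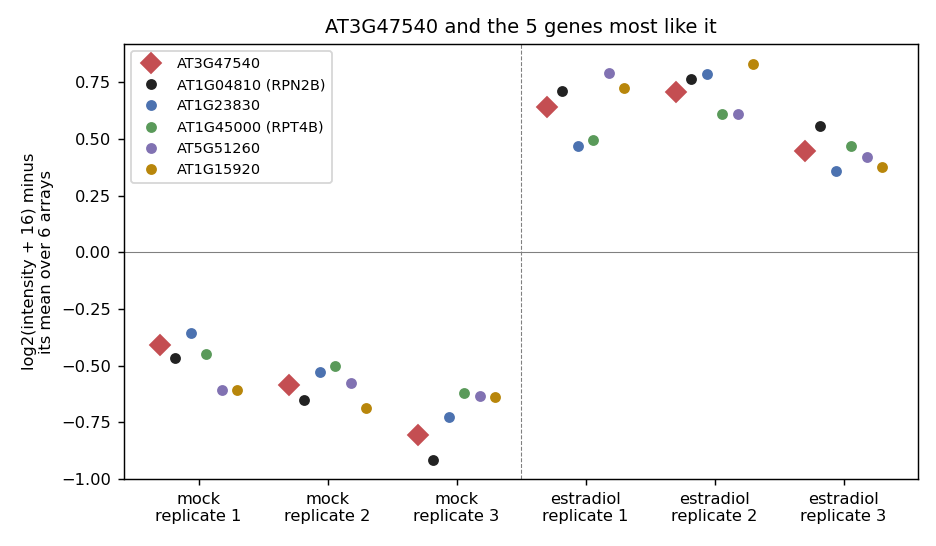
Log2(intensity + 16) minus each gene's mean over the 6 arrays, for AT3G47540 (diamonds) and the 5 genes nearest to it (circles), by array. All 6 genes lie below 0 on the 3 mock arrays and above 0 on the 3 estradiol arrays, and the points are spread sideways within an array for sight only.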

How the data were processed

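The deposited table holds a linear intensity for each probe set on each array. The authors made these intensities with GCOS and affy, per the submitters' processing notes, which give neither role nor version; how probes were summarised was not given there. The 2% trimmed mean was 100.01 on all 6 arrays, so total transcript per seedling cannot be compared. Genes were assigned through GEO's platform annotation and Entrez IDs in the RefSeq table of TAIR10.1, which also gave the order of loci. Coordinates are omitted because the array's build is not named. Of 22810 probe sets, 64 controls were removed, and no filter on dim probe sets was applied.

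Log2(intensity + 16) values were fitted with limma 3.58.1 in R 4.3.3 (group term, eBayes, two-sided, Benjamini-Hochberg over 22746 probe sets), after tests on simulated data; intervals are 95%. The number of arrays limits the precision. Named genes were the measured members and neighbours, the 5 nearest genes, and in each list up to 4 past the threshold, otherwise the 2 of smallest p. Members and lists were chosen with earlier results of these data known. Replicate numbers were not taken to pair arrays. Alternatives changed pairing, scaling, pseudocount, filter, variance model, weights and arrays. Sequences were not used here. Plots used matplotlib 3.10.9 (Python 3.11.15).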

Additional observations from a re-analysis of the deposited data

How the results depend on the processing

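Of 17 alternatives, 15 tested all 24 relatives, other listed chitinases, chitin perception and defence genes and neighbours of AT3G47540, and the filters on the dimmest 25% and 50% of probe sets left 18 and 12 of them; wherever one of these genes was tested, it did not pass the threshold in either direction. The lowest adjusted p was 0.164 for AT2G43620 and 0.0908 for ChiC, both with the dimmer 50% of probe sets left out, and the highest were 0.905 and 0.922 with mock replicate 3 as the only control, where no probe set at all was called. Leaving out an array leaves fewer arrays to the fit, but the calls did not always fall. Without estradiol replicate 3, 57 of all probe sets were called higher, against 26 on all arrays. Without any other single array, 0 to 2 were called higher. The log2 difference of AT3G47540 was 1.48 with a pseudocount of 1, 0.76 with 64 and 1.41 with mock replicate 3 as the only control. It was 1.096 to 1.295 when each array was left out. This gene was chosen for its rise and its groups do not overlap, so these settings could not turn its sign. The log2 difference of AT2G43620 was 0.56 to 0.80 and that of ChiC 0.61 to 0.85 when each array was left out.

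The number of all probe sets called higher, 26, was 17 with the replicate block, 43 after median centring, 0 with a pseudocount of 1, 11 with 64, 96 and 89 with the dimmest 25% or 50% left out, 51 with trend and robust eBayes, 91 with array weights, 0 without replicate 3 of both groups, 0 with mock replicate 3 as the only control, and 0 to 57 when each array was left out. The number called lower was 1 with either filter and with array weights, and 0 otherwise. The block changed no call among the measured relatives of AT3G47540. Deviations from the group means of same-numbered arrays correlated at 0.0908 for replicate 1, 0.113 for replicate 2 and 0.329 for replicate 3. The main fit was made without pairing whatever these values, and the block was tried only as an alternative.

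The sign turned for the genes below; the cause was not tested. When each array was left out, the range was -0.00377 to 0.32 for AT2G43610, -0.48 to 0.14 for CHI, -0.0905 to 0.09003 for AT1G02360, -0.33 to 0.00691 for PBL27, -0.27 to 0.18 for PDF1.2, -0.32 to 0.0502 for THI2.1, -0.0179 to 0.31 for WRKY53, -0.11 to 0.17 for AT3G47510, -0.14 to 0.14 for AT3G47550 and -0.0858 to 0.11 for AT3G47570. Against mock replicate 3 alone, the values were 0.0202 for AT1G02360, -0.17 for AT4G19820 (0.33 on all arrays), 0.0214 for PBL27, 0.46 for PDF1.2, 0.38 for THI2.1 and 0.13 for AT3G47550. AT1G02360 was 0.0117 after quantile normalization, 0.0284 after median centring and 0.00138 with a pseudocount of 64, and PDF1.2 was 0.00594, 0.026 and 0.00158. AT3G47550 was 0.00956 after median centring, 0.0444 with array weights and 0.0651 without replicate 3 of both groups, where WRKY53 was -0.0149.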
